A study of Mus musculus with 64 samples.

Results

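The genes described here were 8 genes used as markers of cholangiocytes, the epithelial cells of the bile duct, and of hepatic progenitor cells: Krt7, Krt19, Sox9, Epcam, Spp1, Cd24a, Prom1 and Cftr. They were chosen by symbol, with earlier results of these data known. All 8 were found among the 23338 genes counted in each of 64 RNA-seq libraries of C57BL/6 mice (C57BL/6 J in the study's methods). The groups were 12 single eight-cell embryos collected at 2.5 dpc (days post-coital) after natural mating (6 male, 6 female), 4 embryonic stem (ES) cell lines made from embryos of that stage and grown with LIF in 2i medium, which holds inhibitors of the MEK and GSK3 kinases (2 male, 2 female), 24 fetal livers of late gestation (12 male, 12 female) and 24 livers of adults of 15 to 20 weeks on standard chow (12 male, 12 female). Each liver came from a different animal. The embryos came from 4 litters, and embryos were sexed by their expression of Xist and Eif2s3y, ES lines and fetuses by PCR for Sry. Livers and ES lines were sequenced from total RNA, whereas each embryo was amplified by a single-cell protocol with PCR.

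Bile ducts form around the portal vein when bipotent hepatoblasts switch on Sox9 and the Notch pathway and build an epithelium that holds keratins 7 and 19, the adhesion protein Epcam and secreted osteopontin (Spp1). Mature ducts modify bile through the chloride channel Cftr, while Prom1 (CD133) and Cd24a are surface proteins used to sort hepatic progenitors. Most of these genes are not private to the duct. Keratin 7, keratin 19 and Epcam are found in other epithelia such as the gut, Spp1 is made by macrophages among other cells, and Cd24a is a surface protein of red cell, neutrophil and B cell precursors, which fill the fetal liver. In bulk tissue, fewer cells of a type and less RNA per cell cannot be told apart.

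Between 1567583 (an adult liver) and 10386931 (an ES line) reads lay on genes, and the median was 2708579 in adult and 6914323 in fetal livers. The level that 3 reads can show was therefore between 0.631 and 1.91 CPM (reads scaled to the library's total on genes) in adult livers, against 0.353 to 0.583 CPM in fetal livers, before TMM scaling and for counting error only. Levels below are CPM scaled by TMM, which corrects each library for the few very abundant genes that take up its reads, over all 64 libraries. In the fit of all livers TMM raised adult over fetal values by a log2 of 0.57 relative to library totals, so changes between the stages are relative to that shift. A difference was called when the adjusted p was under 0.1 and the absolute log2 was above 0.5. Both liver stages carried hepatocyte mRNA, with summed levels of 7 hepatocyte markers between 19628 and 26547 CPM in fetal and between 43750.5 and 62726 CPM in adult livers. The 8 genes together came to between 1159 and 1713 CPM in fetal liver and between 40.7 and 169 CPM in adult liver.

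RefSeq start regions of GRCm38.p6, 250 bases before to 50 bases after a start, were at hand for 5 of the 8 genes (Prom1, Spp1, Cftr, Krt7 and Epcam). Both windows of Prom1 and the upstream of 2 windows of Spp1 are shown because Prom1 carried the largest difference between adult sexes among the 8 genes and Spp1 was the gene called higher in adult than in fetal liver. Capitals mark matches on either strand to 4 motifs. The motif of the core promoter was spelled TATAAA in the search. For HNF1, a hepatocyte and duct factor, the search used GTTAAT as part of its site. For the GATA factors of blood and endoderm, AGATAA was searched. For STAT5, which growth hormone activates in hepatocytes, TTCNNNGAA was searched.
Prom1, upstream start, chr5:44101687-44101986, minus strand: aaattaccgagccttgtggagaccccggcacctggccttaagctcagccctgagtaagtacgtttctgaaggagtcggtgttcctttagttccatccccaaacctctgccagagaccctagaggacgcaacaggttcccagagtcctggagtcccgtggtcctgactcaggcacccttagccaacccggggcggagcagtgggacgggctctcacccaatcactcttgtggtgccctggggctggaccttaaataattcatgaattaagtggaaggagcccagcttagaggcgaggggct
Prom1, downstream start, chr5:44094719-44095018, minus strand: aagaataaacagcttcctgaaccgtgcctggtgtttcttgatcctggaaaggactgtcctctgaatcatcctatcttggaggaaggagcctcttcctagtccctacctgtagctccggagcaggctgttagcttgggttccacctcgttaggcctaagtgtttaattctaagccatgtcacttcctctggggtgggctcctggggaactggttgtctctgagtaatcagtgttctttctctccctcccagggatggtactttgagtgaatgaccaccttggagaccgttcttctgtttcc
Spp1, upstream start, chr5:104434861-104435160, plus strand: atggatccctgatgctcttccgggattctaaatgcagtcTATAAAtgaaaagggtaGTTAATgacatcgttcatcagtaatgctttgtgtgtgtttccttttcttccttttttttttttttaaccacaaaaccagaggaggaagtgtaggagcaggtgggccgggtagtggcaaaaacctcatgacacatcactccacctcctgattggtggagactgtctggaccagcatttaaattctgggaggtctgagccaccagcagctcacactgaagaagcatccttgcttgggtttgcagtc
The Spp1 window shown held the core promoter motif 211 bases and the HNF1 motif 194 bases before the start, both on the strand of the gene, and the motifs did not overlap. Neither Prom1 window held any of the 4 motifs, nor did the Spp1 window at chr5:104435942-104436241, which is not shown. Of 32851 RefSeq start regions of the same length, 13.6% held the core promoter motif, 7.10% that of HNF1, 11.2% that of the GATA factors and 8.30% that of STAT5. These matches describe the letters only.

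2 fetal livers, both female, stood apart. Liver 14 had a summed level of 664 CPM over 4 intestinal epithelial markers, where the 22 fetal livers other than 14 and 15 had 3.91 to 10.2 CPM. Its level of Fabp2, a fatty acid binding protein of the gut, was 471 CPM against at most 4.93, and that of Vil1, a protein of the brush border, was 179 CPM against at most 4.70. Liver 15 had 591 CPM over 6 pancreatic acinar markers, among them 367 CPM of Ctrb1, a digestive protease. The 22 livers had 8.17 to 299 CPM over these acinar markers.

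In liver 14, 4 of the genes described here were far above all other fetal livers. Epcam was at 169 CPM there, against 1.33 to 5.00 CPM in the 22 livers, and Krt19 was at 88.5 CPM against 2.64 to 6.20. Krt7 was at 25.0 CPM against 2.64 to 7.72, and Cftr was at 22.1 CPM against 0 to 0.796. Liver 15 was also above all 22 for Epcam (10.7 CPM), Krt19 (10.4 CPM), Krt7 (8.36 CPM) and Spp1, which was at 102 CPM against 13.3 to 46.5. The liver with the next highest acinar sum, at 299 CPM, was a male with 13.4 CPM of Spp1, at the low end of the range. Whether gut or pancreas tissue took part in these levels was not tested, and each result below that rests on these livers is given with and without them.

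**Figure D1:**
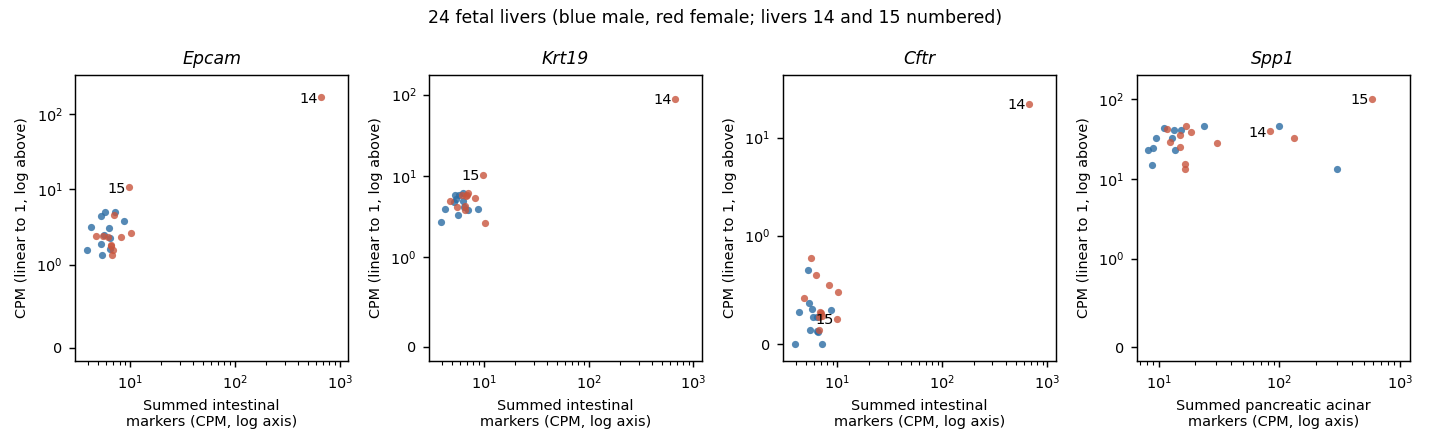
Level in CPM of Epcam, Krt19 and Cftr against the summed intestinal markers, and of Spp1 against the summed pancreatic acinar markers, in 24 fetal livers (points; blue male, red female). Liver 14 stands alone at 664 CPM of intestinal markers with 169 CPM of Epcam, and liver 15 at 591 CPM of acinar markers with 102 CPM of Spp1.

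Per kilobase of annotated exon (GENCODE M21), which is needed to compare one gene with another, Cd24a had the highest median level in fetal liver at 506 CPM per kb. Spp1 (19.7), Prom1 (12.8) and Krt19 (2.60) followed, then Epcam (1.09), Krt7 (0.741), Sox9 (0.440) and Cftr (0.0373 CPM per kb). The lowest Cd24a value, 384, was above every value of the other genes, while each of the other 7 genes overlapped with its neighbours in this order. The overlap of Prom1 and Krt19 rested on liver 14, since without it the highest Krt19 value was 5.58 and without livers 14 and 15 it was 3.34, below the lowest Prom1 value of 9.83 CPM per kb. Each of the other neighbouring pairs also overlapped without livers 14 and 15. In adult liver Spp1 led with a median of 41.1 CPM per kb, from 18.5 to 75.9, above every value of the other 7 genes. Cd24a (1.67), Epcam (1.03), Krt19 (0.925), Prom1 (0.535), Sox9 (0.510), Krt7 (0.139) and Cftr (0.0460) all overlapped with their neighbours. In ES cells Spp1 (339 CPM per kb) was above Cd24a (32.7) and Epcam (28.5), which overlapped each other. Krt19 (0.990) and Prom1 (0.892) overlapped too, followed by Krt7 (0.251), Cftr (0.0242) and Sox9 (0.00880 CPM per kb). In embryos Epcam (15.6) and Cd24a (6.06), which also overlapped, were the only genes with reads in all 12. The lengths join all annotated exons of a gene (7049 bases for Krt7, 1855 for Krt19). The authors counted reads on another annotation, so orders of genes close in level rest on the lengths chosen. In CPM without length, Krt7 in fetal liver (median 5.22) was above Krt19 (4.83) and Epcam (2.40).

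**Figure D2:**
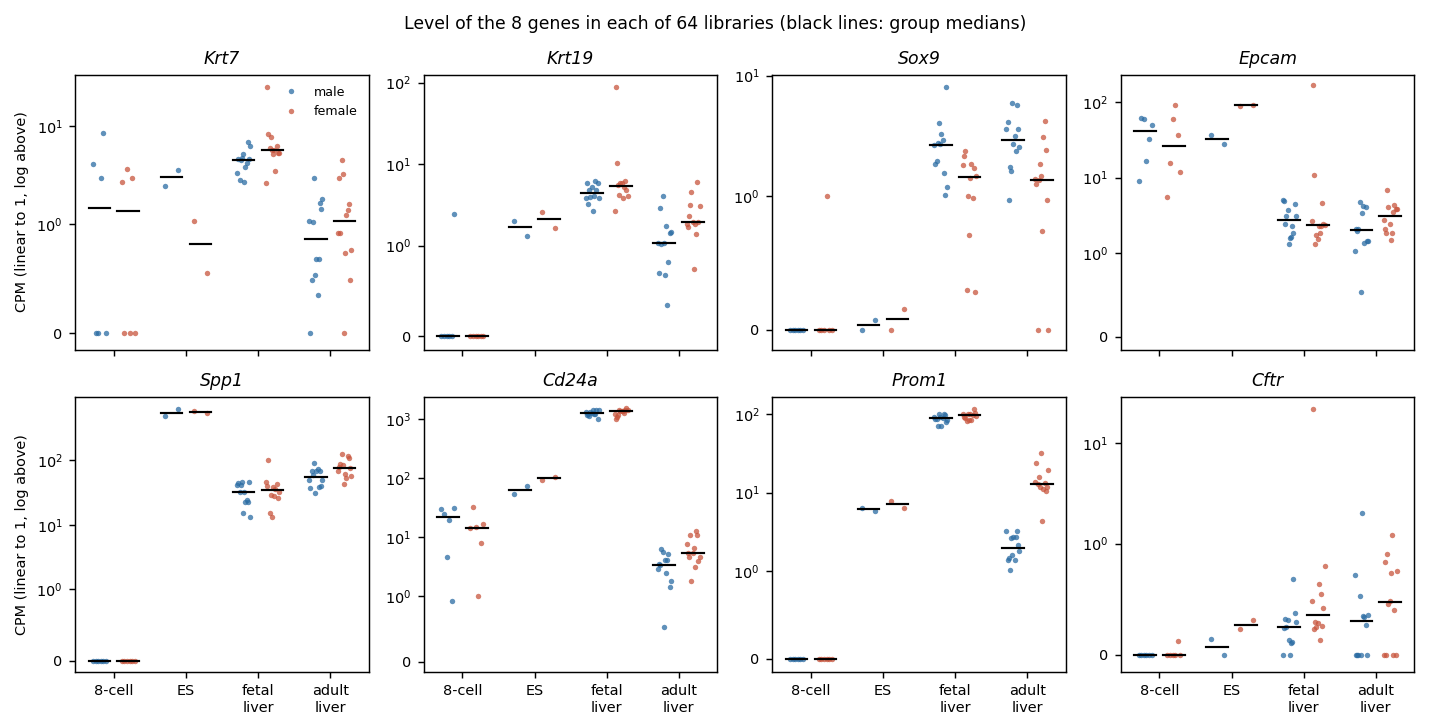
Level of each gene in CPM in all 64 libraries by stage and sex (points; black lines are group medians; the axis is linear up to 1 and logarithmic above). Cd24a sits between 991 and 1571 CPM in the fetal livers and at or below 12.5 CPM in every adult liver, and Prom1 in adult liver is the one gene and stage of the livers at which the sexes do not overlap.

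The first question was how the duct and progenitor genes differ between a liver before birth and an adult liver, with sex in the model and all 48 livers fitted together. Of the 8 genes, 5 were called lower in adult liver (Krt7, Krt19, Epcam, Cd24a and Prom1), where 35.3% of the 12875 genes tested were called lower. Spp1 was called higher, as were 31.7% of all genes, Sox9 was not called, and Cftr had too few reads to be tested. Without fetal livers 14 and 15 the 4 genes called lower were Krt7, Krt19, Cd24a and Prom1, against 35.2% of genes. Krt7 and Krt19 passed the filter on low counts through the fetal livers, since 24 fetal but only 4 and 6 adult livers reached its level of 2.02 CPM, so a gene of that kind had to differ.

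Cd24a (chromosome 10, 43578284 to 43584265, plus strand, GRCm38) had the largest stage difference of the 8. It ranged from 991 to 1571 CPM (median 1307) in fetal liver and from 0.536 to 12.5 CPM (median 4.31) in adult liver. Every fetal liver was thus far above every adult liver. The log2 adult/fetal was -7.92 ± 0.13 (SE, edgeR adjusted p = 1.02e-46), a 243-fold difference. All 8 erythroid markers tested of 10 were called lower in adult liver too, where 35.3% of all genes were. Their summed level ran from 4481 to 6691 CPM in fetal and from 18.4 to 249 CPM in adult livers, where Ermap was at 0. Hba-a1 and Hbb-b1 were at 0 in adult livers but were also at most 0.157 and 0.131 CPM in fetal livers, and neither was tested. The anion exchanger Slc4a1 led them in fetal liver, with a mean of 2544 CPM. All 8 neutrophil markers fell likewise, from 1687 to 3560 CPM down to 0 to 9.32 CPM (Camp at 0), as did all 5 B lineage markers, from 36.5 to 84.6 down to 0 to 7.39 CPM (Igll1 at 0). The part of these blood cells in the Cd24a difference was not tested.

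Prom1 (chromosome 5, 43993620 to 44102032, minus strand) was next. Fetal livers held 70.5 to 116 CPM (median 91.6) and adult livers 1.04 to 32.0 CPM (median 3.84), with no overlap. The log2 was -3.43 ± 0.19 (SE, adjusted p = 2.80e-22). The annotation places Gm42716 on the same strand and Gm16401 on the other strand within Prom1, and the strand setting of the counting is not given in the sources used here, so reads of these genes and of Prom1 may not be told apart.

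The keratins were low in both stages. Krt7 (chromosome 15, 101411043 to 101430313, plus strand, overlapped by the antisense gene Gm671) had 2.64 to 25.0 CPM (median 5.22) in fetal and 0 to 4.52 CPM (median 0.981) in adult liver. The groups overlapped at their edges, and the log2 was -1.91 ± 0.26 (adjusted p = 3.46e-09) or -1.68 ± 0.20 without livers 14 and 15. Krt19 (chromosome 11, 100140810 to 100148665, minus strand) had 2.64 to 88.5 CPM (median 4.83) in fetal and 0.339 to 6.00 CPM (median 1.72) in adult liver. Its log2 was -1.84 ± 0.42 (adjusted p = 8.93e-05), and -1.10 ± 0.17 (adjusted p = 7.84e-08) without livers 14 and 15, so the size of this difference depended on them while the call did not.

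Epcam (chromosome 17, 87635979 to 87651129, plus strand) was called lower in adult liver, but not without liver 14. It had 1.33 to 169 CPM (median 2.40) in fetal and 0.536 to 6.78 CPM (median 2.26) in adult liver. The log2 of -1.40 ± 0.61 (adjusted p = 0.0298) became 0.03 (adjusted p = 0.902) without liver 14 and 0.21 (adjusted p = 0.301) without livers 14 and 15. DESeq2 gave -0.07 with all livers (adjusted p = 0.778). The levels of the remaining 22 fetal livers and the 24 adult livers overlapped over most of their ranges.

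Spp1 (chromosome 5, 104435118 to 104441050, plus strand, overlapped on its strand by Gm42793) went the other way. It had 13.3 to 102 CPM (median 32.5) in fetal and 30.5 to 125 CPM (median 67.7) in adult liver. The groups overlapped, but the adult median was above every fetal liver other than liver 15. The log2 was 1.08 ± 0.17 (adjusted p = 7.66e-08), or 1.21 ± 0.15 without livers 14 and 15. Of 7 macrophage markers, 4 were called lower and 2 higher in adult liver, where 35.3% and 31.7% of all genes were. Their summed levels were 506 to 811 CPM in fetal and 385 to 1126 CPM in adult liver. The part of these markers in the Spp1 level was not tested.

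Sox9 (chromosome 11, 112782224 to 112787760, plus strand), the transcription factor that marks the first duct cells, had 0.284 to 8.10 CPM (median 1.82) in fetal and 0 to 5.89 CPM (median 2.11) in adult liver. The log2 of 0.25 lay between -0.23 and 0.73 (95% interval) and was not called (adjusted p = 0.337). With library totals in place of TMM it was -0.32 (adjusted p = 0.206). Cftr (chromosome 6, 18170687 to 18322768, plus strand, overlapped by Gm15595 and the antisense gene Gm15592) had 229 reads over the 24 fetal livers, of which 175 were in liver 14, and 22 reads over the 24 adult livers. It had no read in 2 fetal and 9 adult livers. In these 9 adult livers, 3 reads stood for 0.830 to 1.86 CPM before TMM scaling. Fitted with no filter its log2 was -1.13 (adjusted p = 0.13), so no stage difference in Cftr was detectable at this depth.

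**Figure D3:**
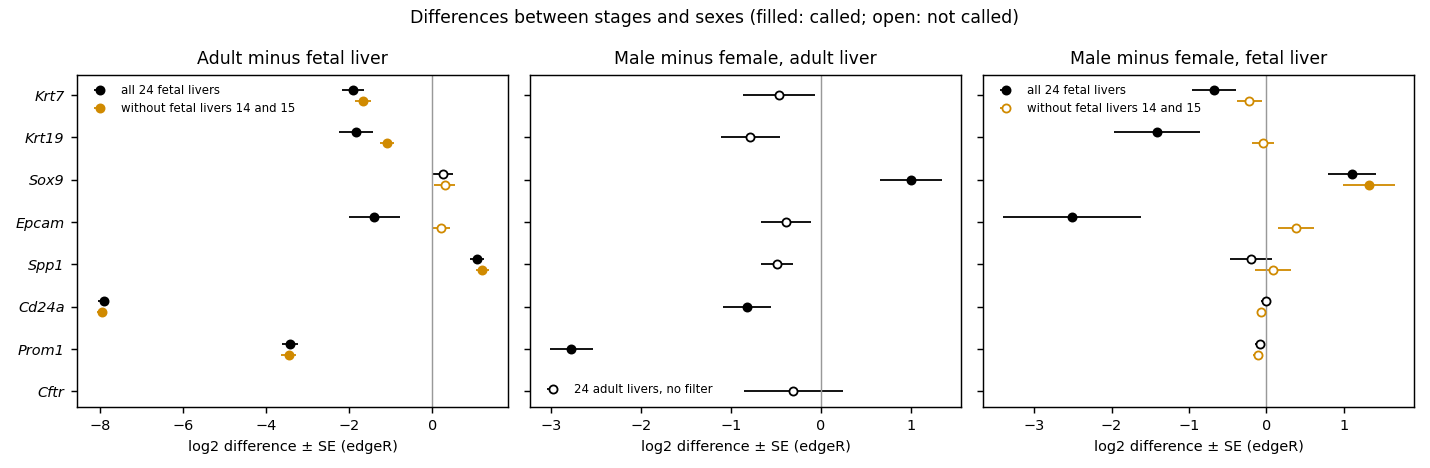
Log2 difference ± SE from edgeR for adult minus fetal liver, male minus female adult liver (fitted with no filter on low counts, so that all 8 genes have a value) and male minus female fetal liver; filled points were called, open points were not, and orange points leave out fetal livers 14 and 15. Without these livers Epcam sits near 0 in adult against fetal liver, and Krt7, Krt19 and Epcam are not called between fetal sexes.

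Other genes of duct formation, taken from 4 lists, did not share 1 direction. Over all genes tested, 31.7% were called higher and 35.3% lower in adult liver, so calls in both directions were common among genes at large. Of 13 genes of duct specification and Notch signalling, 12 were tested, 2 were called higher and 3 lower in adult liver, with a median log2 of 0.18 where all genes tested had -0.05. Yap1, the co-activator of the Hippo pathway, was higher at 117 ± 14.1 CPM in adult against 45.1 ± 6.23 CPM in fetal liver (SD, n = 24 each, log2 1.49 ± 0.05 SE). Onecut2, a factor of hepatoblast fate, was higher at 172 ± 54.7 against 65.2 ± 37.1 CPM. Sox4, a partner of Sox9 in duct formation, was lower at 3.44 ± 1.56 against 12.7 ± 2.28 CPM, and Rbpj, the DNA-binding partner of Notch, at 32.2 ± 5.24 against 51.2 ± 5.73 CPM.

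Among 11 epithelial keratins, junction and surface proteins, 6 were tested, 3 were called higher and 1 lower (median log2 0.69). The tight junction gene Cldn3 rose from 2.35 ± 1.93 to 80.1 ± 16.2 CPM and Krt18, the keratin of hepatocytes, from 125 ± 16.2 to 284 ± 40.4 CPM. Itga6, a laminin receptor, fell from 43.9 ± 6.61 to 9.36 ± 4.68 CPM. Of 10 duct transport and cilium genes, 8 were tested, 3 called higher and 2 lower (median log2 0.39). The bile acid transporter Slc10a2 was at most 0.394 CPM in any fetal liver and 13.6 to 80.1 CPM in adults, and the cilium channel Pkd2 rose from 28.7 ± 4.25 to 50.7 ± 6.37 CPM. Ggt1, gamma-glutamyltransferase, had 50.2 to 147 CPM in fetal livers and at most 1.39 CPM in adults, and the RNA-binding protein Bicc1 fell from 19.8 ± 3.34 to 7.16 ± 2.89 CPM.

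Of 8 hepatoblast and progenitor genes all were tested, and 2 were called higher and 5 lower (median log2 -3.16). The fetal markers Afp and Dlk1 had 10788 to 15134 and 119 to 212 CPM in fetal livers and at most 3.75 and 0.717 CPM in adult livers. Axin2 and Lgr5, targets of Wnt signalling in pericentral hepatocytes, were higher in adults, at 10.9 ± 4.19 against 1.43 ± 0.859 CPM and at 10.5 ± 3.6 against 2.64 ± 0.608 CPM.

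The second question was whether the sexes differ, first in adult liver. Only Prom1 and Spp1 passed the filter there, and both were called lower in males, where 9.49% of 10372 genes were called in either direction. The adult libraries also differed by sex in the entries that name no gene, such as unaligned reads. These held 61.3% to 73.2% of a library's total in males and 53.3% to 63.2% in females. The part of this in the sex differences was not tested. Prom1 passed through the females alone, since every male lay below the filter's level, so a gene of that kind had to differ. Prom1 had 1.04 to 3.27 CPM (median 1.98) in males and 4.42 to 32.0 CPM (median 13.03) in females. Every female was above every male. The log2 male/female was -2.80 ± 0.25 (SE, adjusted p = 1.07e-10), a 6.96-fold difference that rested on 66 reads over 12 males and 361 over 12 females. Since the sexes did not overlap over all adult livers, they had to be apart in any part of them. In the 14 livers with at least 68% of counted reads on genes, the log2 was -2.96 (highest male 3.27, lowest female 10.4 CPM). In the 10 livers below that share Prom1 did not pass the filter (highest male 2.70, lowest female 4.42 CPM).

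Spp1 was at 30.5 to 90.0 CPM (median 54.8) in males and 42.2 to 125 CPM (median 76.3) in females. The sexes overlapped widely. The log2 was -0.52 ± 0.17 (adjusted p = 0.0307), only just past the fold limit, and it fell inside the limit with no filter on low counts (-0.49), with the share of reads on genes as a covariate (-0.49) and with both stages in one fit (-0.495). Of 7 macrophage markers 4 were also called lower in adult males, where 9.49% of all genes were called in either direction. Their summed levels were 385 to 667 CPM in males and 514 to 1126 CPM in females, and their part was not tested.

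Fitted with no filter, under which 8.79% of 17265 genes were called, Sox9 and Cd24a were called as well as Prom1. Sox9 had 0.970 to 5.89 CPM (median 2.94) in males and 0 to 4.18 CPM (median 1.37) in females, with log2 1.00 ± 0.34 (adjusted p = 0.0371). Cd24a had 0.536 to 6.26 CPM (median 3.43) in males and 1.84 to 12.5 CPM (median 5.39) in females, with log2 -0.82 ± 0.26 (adjusted p = 0.0263). Both rested on few reads, 93 and 36 for Sox9 and 111 and 152 for Cd24a, and the sexes overlapped in each. Krt19 (-0.78, adjusted p = 0.102), Krt7 (-0.47), Epcam (-0.39) and Cftr (-0.31) were not called. Of the other listed genes Itga6 (5.37 ± 1.80 against 13.3 ± 2.82 CPM), Bicc1 (5.68 ± 2.19 against 8.64 ± 2.82 CPM) and the fibrocystin gene Pkhd1 (53.6 ± 17.4 against 90.2 ± 19.8 CPM) were called lower in males (SD, n = 12 each).

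In fetal liver 4 of the 8 genes were called between the sexes, where 4.64% of 12930 genes were called, but 3 of these calls rested on liver 14. Krt7 (log2 male/female -0.67), Krt19 (-1.41) and Epcam (-2.51) were called lower in males with all 24 livers, and were at -0.29, -0.19 and -0.04 without liver 14, with adjusted p of 0.173, 0.412 and 0.938. Without livers 14 and 15, 5.07% of all genes and, of the 8 genes, Sox9 alone were called. Female levels then ran from 2.64 to 7.72 CPM for Krt7 and from 2.64 to 6.17 CPM for Krt19, where males ran from 2.66 to 6.81 and from 2.66 to 6.20 CPM. Cftr, fitted with no filter on low counts, was called lower in males (-3.13, adjusted p = 0.0223) but not without liver 14 (-0.70, adjusted p = 0.221).

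Sox9 was higher in fetal males, at 1.02 to 8.10 CPM (median 2.67) against 0.284 to 2.35 CPM (median 1.43) in females. The highest value was a male and the ranges overlapped between 1.02 and 2.35 CPM. The log2 was 1.11 ± 0.31 (adjusted p = 0.00861), and 1.32 ± 0.34 without livers 14 and 15. The share of counted reads on genes separated the sexes of the fetal livers completely, at 50.4% to 59.3% in males and 61.2% to 65.0% in females. With that share as a covariate the log2 of Sox9 was -0.60 (adjusted p = 0.957), and 7 genes in all were called. Sex and that share cannot be told apart in these livers. Of the 12 duct specification and Notch genes tested, 4 were called higher in males, where 4.64% of all genes were called in either direction. Among them were Notch2 (181 ± 26.5 against 130 ± 13.1 CPM), Onecut1 (18.8 ± 6.85 against 10.98 ± 3.72) and Onecut2 (89.3 ± 39.7 against 41.1 ± 6.71). The hyaluronan receptor Cd44 was called higher too (74.1 ± 9.32 against 49.4 ± 8.65 CPM, all SD with n = 12). None of these named genes was called with the share as a covariate.

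Cd24a, Prom1 and Spp1 were not called between fetal sexes. Prom1 had 70.5 to 100.4 CPM in males and 81.2 to 116 CPM in females, with log2 -0.09 between -0.21 and 0.04 (95% interval). A test of the difference itself, the stage by sex interaction over 48 livers, called 2 of the 8 genes, Prom1 (log2 -2.68 ± 0.24, adjusted p = 6.10e-13) and Cd24a (-0.79 ± 0.26, adjusted p = 0.0172), where 13.7% of all genes were called. For Sox9 the interaction was -0.07 ± 0.50 (adjusted p = 0.945), so its male bias was not shown to differ between the stages.

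The third question was where these genes stand before a liver exists. In ES lines Spp1 was at 480 and 618 CPM in the male and 575 and 543 CPM in the female lines. That was above all 48 livers, and the log2 ES/fetal liver was 4.11 ± 0.24 (adjusted p = 5.78e-15). Epcam was at 36.9 and 27.6 CPM in male and 88.4 and 92.9 CPM in female lines, a log2 of 3.02 over fetal liver, or 4.53 without livers 14 and 15. These were the 2 genes called higher in ES cells than in fetal liver, where 36.2% of genes were called higher. The other 5 genes tested were called lower, where 40.5% were called lower, namely Sox9 (log2 -4.79), Cd24a (-3.89), Prom1 (-3.68), Krt19 (-1.91) and Krt7 (-1.39). The sizes for Krt19 and Krt7 rested in part on fetal livers 14 and 15. Without these livers the fetal mean of Krt19 fell from 8.39 to 4.66 CPM, against 1.90 CPM in ES lines. That of Krt7 fell from 5.82 to 4.84 CPM, against 1.91 CPM in ES lines. Sox9 had 3 reads over the 4 lines, and Cftr had 9. Sox9 passed the filter through the fetal livers alone, so a gene of that kind had to differ.

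Between male and female ES lines Krt7 (log2 1.88 ± 0.45, adjusted p = 0.0780) and Epcam (-1.48 ± 0.16, adjusted p = 0.0142) were called, where 9.5% of genes were called. Krt7 was at 2.46 and 3.57 CPM in male and 1.08 and 0.550 CPM in female lines, on 104 reads in all. Both remained called without either male line, and neither was called without either female line, where the lone line of a sex was assumed to vary like those of the other sex. Cd24a was at 53.1 and 74.4 CPM in male and 94.1 and 104 CPM in female lines (log2 -0.63, adjusted p = 0.101).

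Eight-cell embryos had reads of few of these genes. Epcam had 5.52 to 91.6 CPM (median 34.2) and Cd24a 0.922 to 32.8 CPM (median 15.6), with reads in all 12 embryos. Krt7 was patchy, with no read in 6 embryos, 3 of each sex, and 20 to 55 reads in the other 6. Spp1 and Prom1 had no read in any of the 12 embryos, which allows 0.0410 CPM over the group before TMM scaling, for counting error only. By that bound the pooled ES level was at least 17779-fold higher for Spp1 and at least 212.5-fold higher for Prom1. Transcripts lost before or during amplification are outside the bound, so the true fold may be smaller. The 4 genes called higher in ES cells were Spp1, Prom1, Krt19 and Cd24a, where 37.6% of genes were called higher. The log2 of Cd24a was 2.16 ± 0.63 (edgeR adjusted p = 0.00718). Krt19 had 18 reads in 1 male embryo. Spp1, Prom1 and Krt19 passed the filter through the ES lines, so genes of that kind had to differ. DESeq2 called 3 of the 8. The embryos were amplified and the ES lines were not, so protocol and stage cannot be told apart here. Between the sexes of the embryos, edgeR called 0 of the 3 genes tested (Krt7, Epcam and Cd24a), where 0.264% of genes were called, 0 of them had an unadjusted p under 0.05, and DESeq2 called 0 of 6.

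Within a liver stage, the genes were correlated over 24 animals on log2 CPM with the sex means removed, 21 pairs in fetal liver and 1 in adult liver. In fetal liver 5 pairs had a Spearman adjusted p under 0.1, and 2 of them held without livers 14 and 15. Spp1 and Epcam had rho = 0.72 (permutation p = 0.00012, adjusted 0.00264) and r = 0.46 (permutation p = 0.0303, adjusted 0.0833), and r = 0.64 without the 2 livers farthest in Epcam. Without livers 14 and 15 rho was 0.73 and r was 0.68. Spp1 and Sox9 had rho = 0.67 (permutation p = 0.00048, adjusted 0.00528) and r = 0.65 (permutation p = 0.00047, adjusted 0.00345), with r = 0.67 without the 2 livers farthest in Sox9 and rho = 0.64 without livers 14 and 15. The share of counted reads on genes varied within each sex and was not removed before any of these correlations. Sox9 was highest in the liver with the lowest share of its sex (male 11, log2 deviation 1.55, and female 15, 0.748). Sox9 was lowest in the liver with the highest share of its sex (male 10, -0.977, and female 23, -1.15). The part of that share in the correlations was not tested.

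The other 3 pairs, all with Krt19, had a rho that did not pass without livers 14 and 15. Krt19 and Krt7 had rho = 0.64 (permutation p = 0.00103, adjusted 0.00755) and r = 0.85 (permutation p = 7.00e-05, adjusted 0.00143), with r = 0.47 without the 2 livers farthest in Krt7. Krt19 and Epcam had rho = 0.56 (permutation p = 0.00559, adjusted 0.0307) and r = 0.89 (permutation p = 0.00013, adjusted 0.00143), with r = 0.59 without the 2 livers farthest in Krt19. Krt19 and Cd24a had rho = -0.49 (permutation p = 0.0150, adjusted 0.0659) and r = -0.55 (permutation p = 0.00153, adjusted 0.00841), with r = -0.61 without the 2 farthest. Without livers 14 and 15 the rho values were 0.35, 0.08 and -0.29 (adjusted permutation p from 0.509 to 0.865), and the r values 0.53, 0.14 and -0.24, of which that of Krt19 and Krt7 still passed (adjusted permutation p = 0.0782). In adult liver Spp1 and Prom1 had rho = -0.11 (permutation p = 0.605) and r = -0.14 (permutation p = 0.516), with r = 0.04 without the 2 livers farthest in Spp1 and adjusted p of 0.856 and 0.757.

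**Figure D4:**
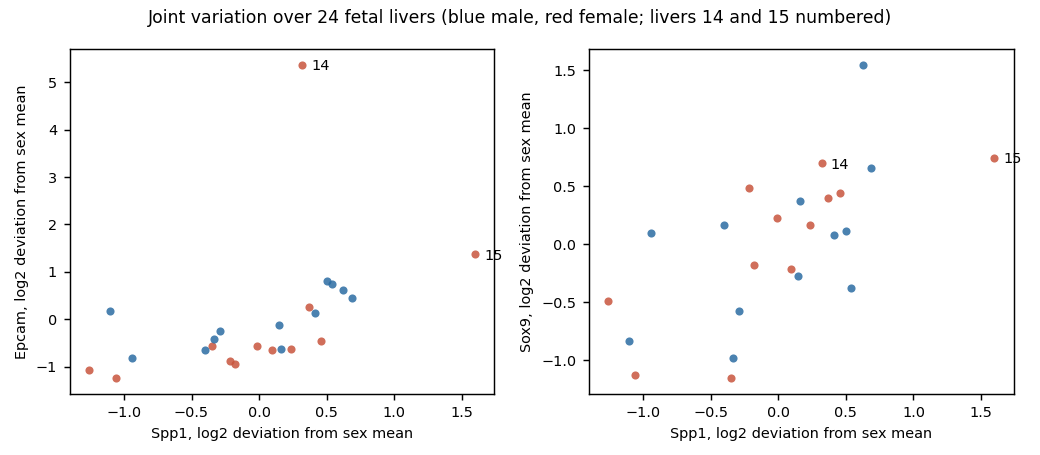
Log2 deviation from the sex mean in 24 fetal livers (points; blue male, red female; livers 14 and 15 numbered) of Epcam and of Sox9 against Spp1. Spp1 rises with Epcam (rho = 0.72) and Sox9 (rho = 0.67).

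The genes whose levels over the 24 livers ranked most like each gene were also listed, among 12930 genes in fetal and 10372 in adult liver, as a description with no test. For Spp1 in fetal liver they were Dcdc2a, a gene of the primary cilium (rho = 0.93), Ltbp2, a matrix protein (0.92), and Adamts16 (0.87), all with a mean under 3 CPM. For Prom1 in fetal liver they were Ugt2b36, a glucuronosyltransferase (0.89), Nespas (0.82) and Sc5d, a sterol desaturase (0.81). In adult liver Spp1 ranked most like Tgfbi (0.83), Aqp8 (0.82) and Itgb5 (0.78), and Prom1 like Them4 (0.68), Chchd4 (0.67) and Cyb5r4 (0.67), so the 3 nearest genes shared no name between the stages.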

How the data were processed

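RNA-seq reads of 64 mouse samples had been aligned to mm10 by the authors with TopHat2 2.0.4 and Bowtie2 2.1.0, per the labels also with SAMtools 0.1.18, duplicates had been removed with Picard, and the deposited values are raw counts of reads per gene from HTSeq, without normalization. The rows without a gene, which held 28.0% to 73.2% of the rows' total in a library, were left out of library sizes and tests. Stage and sex came from the labels, with the fetal age of 17.5 dpc from the study's methods. Samples were separate embryos, lines or animals. Gene positions and exon lengths came from GENCODE M21.

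Differences between groups were tested in R 4.3.3 with edgeR 4.0.16 (TMM, filterByExpr, quasi-likelihood test, two-sided), as adjusted p under 0.1 (Benjamini-Hochberg over all genes tested) and absolute log2 above 0.5, with sex in the model of the livers. DESeq2 1.42.0, other scaling, no filter, no fold threshold, the share of counted reads on genes as covariate and left-out ES lines were alternatives. Leaving out fetal livers 14 and 15, library totals and splits of the adult livers were chosen after seeing the data. Correlations used log2 (CPM + 0.5) and 100000 permutations. In simulated data 200 genes were given a log2 of 1. For adult against fetal liver edgeR called 198 of them. For the sexes it called 193 in adult liver, 199 in fetal liver and 149 in ES cells. False calls in these comparisons were 1, 5, 1 and 8. The simulated counts had the same spread for all genes and no outlying library. The false calls therefore do not cover calls that rest on a single liver.

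All 8 genes are reported throughout. From each of 4 further lists the 2 genes called with the smallest adjusted p in each direction between stages, and every gene called between liver sexes, are named, except 1 gene that is not reported here. The 3 nearest genes are named for the genes that passed the filter in both liver stages. The members, lists and tests were chosen with earlier results of these data known. Counting error alone limits a 0 to what 3 reads can show. The start regions of Krt19, Sox9 and Cd24a were not used here.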

Additional observations from a re-analysis of the deposited data

Results flagged for a closer look

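In each sex of the embryos, the sample farthest from the others was compared with the spread of the 6. Krt19 in male embryo 6 (2.42 CPM, 18 reads), Sox9 in female embryo 10 (1.01 CPM, 6 reads) and Cftr in female embryo 11 (0.124 CPM, 1 read) stood apart from the others, among 9 sets of values compared. In each of the 3 cases the other 5 embryos of that sex had no read, so that the single embryo with any read had to stand apart, and nothing is read from it. For sets not fixed in this way, chance gives about 1 in 20.

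The sexes differed by stage in 2 genes. The male minus female log2 was lower in adult than in fetal liver by a test of the difference itself for Cd24a (log2 -0.79, edgeR adjusted p = 0.0172, -0.73 without fetal livers 14 and 15) and for Prom1 (log2 -2.68, edgeR adjusted p = 6.10e-13, -2.66 without these livers).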

How the results depend on the processing

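Of 584 log2 values of the named genes refitted under alternatives, 523 kept direction and side of the threshold, 35 were no longer called, 4 became called and 22 changed sign, 5 of them called values. Leaving out fetal liver 14, or 14 and 15, turned Epcam between stages to 0.032 and 0.21; leaving out both turned the fetal sex difference of Epcam to 0.38 and of Spp1 to 0.084, and the interaction to -0.23 (Krt7), -0.73 (Krt19) and -0.74 (Epcam). Library totals turned Sox9 between stages to -0.32 and Spp1 between ES sexes to 0.016. DESeq2 turned Epcam between fetal sexes to 0.0021 and the interaction of Krt19 to -0.66 and of Epcam to -0.42. The share of reads on genes as a covariate turned the fetal sex difference of Sox9 to -0.60 and Cd24a to 0.25, and the interaction of Krt7 to -0.10, Krt19 to -0.20, Sox9 to 1.58 and Spp1 to 0.82. With 1 ES line left out, the ES sex difference ran from -0.70 to 0.020 for Krt19 and from -0.21 to 0.14 for Spp1. Apart from the livers left out, the cause was not tested.

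Between adult sexes, 0 of the 8 genes were called higher in males, against 1 with DESeq2, no filter or both stages in one fit; 2 were called lower, against 0 in the 10 adult livers with the lower share of reads on genes. Between fetal sexes the 1 gene called higher became 0 with the share as covariate, and the 3 called lower became 1 with DESeq2 and 0 with the share as covariate, without liver 14 (with or without the filter) and without livers 14 and 15. Between ES sexes the 1 called higher became 0 with DESeq2 and 0 to 1 over the lines left out, and the 1 called lower became 2 with DESeq2, with its size factors and with no filter, and 0 to 2 over the lines left out. Correlated fetal pairs fell from 5 to 2 with sex means kept in and to 2 without livers 14 and 15.

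Replicate numbers did not pair the livers: same-numbered fetal and adult livers had correlations of -0.0853 to 0.0472, and none of 24 was above 0.1. With the number as a replicate block Epcam between stages was -0.32 (adjusted p = 0.457) and no longer called, and Krt7 in ES cells against embryos was 1.43 (adjusted p = 0.652).
Over all genes, calls between adult sexes went from 984 to 1518 with no filter and 3400 with no fold threshold, between fetal sexes from 600 to 1057, 4807 and, with the share as covariate, 7, and between ES sexes from 1205 to between 0 and 3070 over the lines left out. Embryo calls went from 24 to 80 with DESeq2, and interaction calls from 1787 to 4384 with no fold threshold and 743 with the share as covariate.

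Depth limited Cftr in every group and Krt7, Krt19, Sox9 and Epcam in adult liver.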
